A study of Mus musculus with 24 samples.

Results

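The 10 genes described here set whether a hematopoietic cell stays out of the cell cycle or passes its first checkpoint: the CDK inhibitors Cdkn1a (p21), Cdkn1b (p27), Cdkn1c (p57), Cdkn2c (p18) and Cdkn2d (p19), the D cyclins Ccnd1, Ccnd2 and Ccnd3, and the kinases Cdk4 and Cdk6. They were chosen by name, as 10 of the 55414 genes in the count files, and all 10 passed the filter on low counts. RNA was sequenced from LSK cells, which are lineage-negative, Sca-1-positive and Kit-positive and hold the stem cells and multipotent progenitors of the blood, sorted from bone marrow of mouse pups at postnatal day 21. The C57BL/6J dams ate regular chow (2018SX, control) or a Western diet (TD.88137, given to make them obese) for 4 weeks before mating and then until lactation ended. The 4 groups were female and male pups of control dams and female and male pups of Western-diet dams, with 6 libraries each, and each of 3 labelled batches held 2 libraries of every group. The labels name no transgene or deletion, and they tie no library to a dam or litter. Pups of 1 litter may therefore stand as separate replicates, and the p-values speak of the spread among these 24 libraries.

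In G1, the D cyclins bind CDK4 or CDK6, and the complexes phosphorylate the RB family, which frees E2F factors to switch on genes of DNA synthesis. INK4 proteins, here p18 and p19, bind CDK4 and CDK6 and block them, while the Cip/Kip proteins p21, p27 and p57 bind cyclin-CDK complexes more broadly and, at D cyclin complexes, can also aid their assembly. In blood stem cells, p57 and p27 are known for holding cells in quiescence, p18 for limiting self-renewal, and CDK6 for setting how fast a resting stem cell leaves G0. Much of the control of these proteins is by phosphorylation and degradation, which RNA does not show.

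The libraries held 38057263 to 51581968 counts in genes. Levels are given as CPM, the count relative to the library's TMM-scaled total, and changes as log2 fold changes from edgeR's quasi-likelihood fit over 19616 genes, with Benjamini-Hochberg adjusted p-values called under 0.05. Of the LSK markers, Kit averaged 536 CPM and Cd34 591 CPM, while Ly6a, which codes for Sca-1, averaged 14.1 CPM and ranged from 2.14 to 39.9 CPM. The Ly6a level is uncertain, since reads shared with similar Ly6 genes may not have been counted. Of batch 3, female control libraries 5 and 6 lay at the edge of the series: their summed erythroid progenitor markers were 5486 and 5257 CPM, the highest of the 24 libraries, and their summed LSK markers, 1134 and 1122 CPM, were the lowest. Values that rest on these 2 libraries are therefore also given without them. In bulk RNA, fewer cells that transcribe a gene and less of its RNA per cell cannot be told apart.

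Per kilobase of exon, Cdk4 was the most abundant of the 10 genes and Cdkn1c the least. Cdk4 averaged 209 ± 21.6 CPM per kb (SD over 24 libraries) and Cdk6 78.4 ± 32.6 CPM per kb, so Cdk6 made up 26.8 ± 6.56% of the transcripts of both kinases. Below them lay Cdkn2d at 52.5 ± 8.02, Ccnd2 at 51.0 ± 9.56, Cdkn1a at 44.0 ± 21.0 and Ccnd3 at 37.6 ± 12.5 CPM per kb. These 4 neighbours did not differ beyond their spread: Cdkn2d exceeded Ccnd2 in 13 of 24 libraries, Ccnd2 exceeded Cdkn1a in 16, and Cdkn1a exceeded Ccnd3 in 14. Ccnd1 followed at 18.1 ± 4.27 CPM per kb and was below Ccnd3 in 21 of 24 libraries. Cdkn1b averaged 5.14 ± 1.11, Cdkn2c 0.968 ± 0.372 and Cdkn1c 0.380 ± 0.131 CPM per kb, and this order held in all 24 libraries. Cdkn1c rested on 17 to 58 counts per library, the thinnest evidence among the 10 genes.

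Among the Cip/Kip and INK4 inhibitors 1 gene supplied most of the RNA. Cdkn1a made up 87.2 ± 4.49% of Cip/Kip transcripts per kb, against 11.9 ± 4.17% for Cdkn1b and 0.921 ± 0.473% for Cdkn1c. Of the INK4 pair, Cdkn2c held 1.90 ± 1.12% and Cdkn2d the rest. Among the D cyclins the split was more even, with Ccnd2 at 48.1 ± 9.13%, Ccnd3 at 34.997 ± 10.6% and Ccnd1 at 16.9 ± 2.89%. The order in the middle depends on the gene length used: with the longest transcript in place of all exons, Ccnd3 (85.6 CPM per kb) exceeded Ccnd2 (75.8), Cdkn1a (75.2) and Cdkn2d (58.1). By mean level, the places of Cdk4, Cdk6, Ccnd1, Cdkn1b, Cdkn2c and Cdkn1c were the same under both lengths. With the longest transcript, though, the medians of Cdk6 (86.7 CPM per kb) and Ccnd3 (83.4) were close. Ccnd3 was then above Cdk6 in some libraries, such as female control 5 (130 against 82.5).

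The calls among the 10 genes lay between batches, which were balanced over sex and diet. Cdkn1a, Cdkn1b, Cdkn2d and Cdk4 passed the test of the batch term, 4 of 10, against 24.2% of all 19616 genes. Cdkn1a, the main target of p53 among CDK inhibitors, ranged from 180 CPM through a median of 249 to 313 CPM in the 8 libraries of batch 1, from 98.3 through 127 to 184 CPM in batch 2, and from 44.5 through 95.7 to 118 CPM in batch 3. Every library of batch 1 lay above every library of batch 3. The fitted level in batch 3 was 2.88-fold below that in batch 1 (log2 -1.53 ± 0.14 SE, adjusted p for the batch term 3.17e-07).

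Cdkn1b, whose protein is stabilised in resting cells, ran from 22.9 through 26.97 to 30.3 CPM in batch 1, from 20.9 through 24.99 to 31.4 CPM in batch 2 and from 15.5 through 17.6 to 22.3 CPM in batch 3. Batches 1 and 3 again did not overlap, and batch 3 was 1.48-fold below batch 1 (log2 -0.57 ± 0.10 SE, adjusted p for the batch term 0.000524). Cdkn1a and Cdkn1b were 2 of 10 genes with no overlap between batches 1 and 3, which 2.18% of all tested genes showed. Cdkn2d averaged 91.9 ± 7.35, 83.1 ± 7.44 and 73.1 ± 14.5 CPM (SD, n = 8) in batches 1, 2 and 3, with overlap between all of them (adjusted p 0.0304). That call was lost when any 1 of 12 libraries was left out, with an adjusted p of at most 0.0944, and without female control libraries 5 and 6 it was 0.215. The 12 were female control 1, 2, 5 and 6, Western-diet female 1, 2, 3 and 6, male control 3 and 5, and Western-diet male 1 and 4. Cdk4 went the other way, at 658 ± 44.3, 627 ± 29.4 and 749 ± 64.4 CPM (adjusted p 0.0151), so these 3 inhibitors were lowest where the kinase was highest. With no filter on low counts the batch calls of Cdk4 (adjusted p 0.133) and Cdkn2d (0.123) were lost, and Cdk6 gained one (0.0204). Limma-voom called 6 of 10 by batch, with Ccnd1 (adjusted p 0.0403) and Ccnd2 (0.0442) added, beside 6477 of all genes. Without female control libraries 5 and 6, 3 of 10 genes were called by batch, beside 14.6% of all genes.

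**Figure D1:**
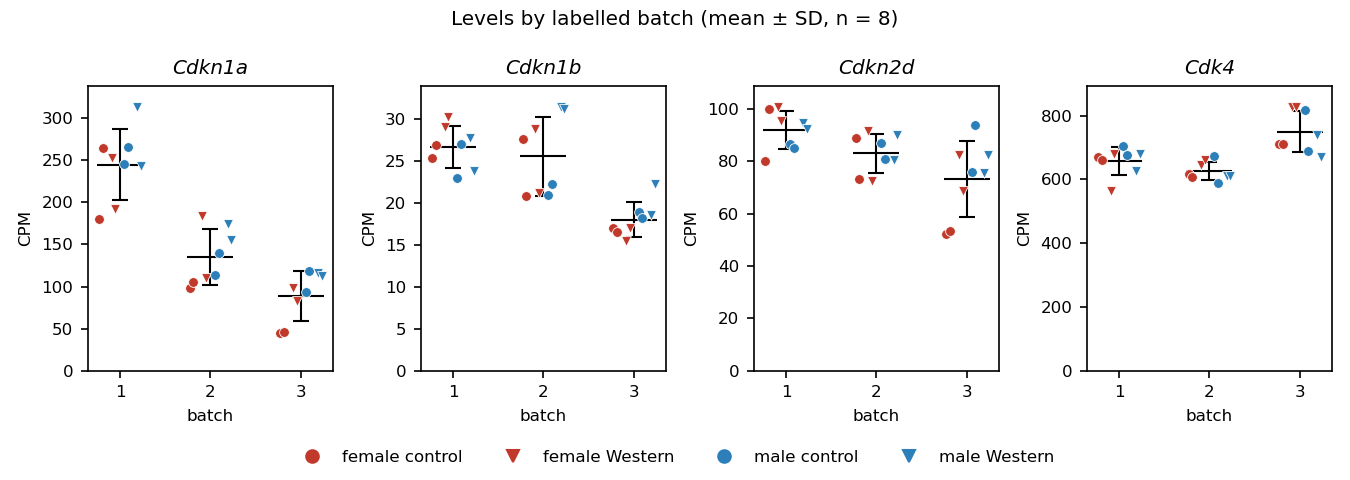
Level in CPM of the 4 genes called by batch, in each of the 8 libraries of every labelled batch. Circles are control and triangles Western-diet libraries, red female and blue male, and black lines give the mean ± SD. Cdkn1a in batch 1 (180 to 313 CPM) lies wholly above batch 3 (44.5 to 118 CPM), and Cdk4 is highest in batch 3.

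The stretches of 150 bases before the annotated starts of these 4 genes are shown because their RNA differed between the batches. They come from RefSeq on build GRCm38.p6, an older build than that of the count files, and run 5′ to 3′ on the gene's strand. Capitals mark matches on either strand to the GC box GGGCGG, the E box CACGTG and the p53 half-site.
Cdkn1a, upstream start (chr17:29090829-29090978, plus strand): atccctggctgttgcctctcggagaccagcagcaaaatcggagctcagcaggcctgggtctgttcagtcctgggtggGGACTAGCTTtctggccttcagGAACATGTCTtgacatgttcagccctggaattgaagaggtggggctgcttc
Cdkn1a, downstream start (chr17:29093619-29093768, plus strand): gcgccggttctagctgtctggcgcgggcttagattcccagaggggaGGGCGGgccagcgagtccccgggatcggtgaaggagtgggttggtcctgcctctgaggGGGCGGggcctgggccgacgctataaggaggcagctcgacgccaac
Cdkn1b (chr6:134920251-134920400, plus strand): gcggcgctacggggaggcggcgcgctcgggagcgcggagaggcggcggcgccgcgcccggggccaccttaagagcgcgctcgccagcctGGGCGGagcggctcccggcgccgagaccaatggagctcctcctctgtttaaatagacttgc
Cdkn2d (chr9:21291210-21291359, minus strand): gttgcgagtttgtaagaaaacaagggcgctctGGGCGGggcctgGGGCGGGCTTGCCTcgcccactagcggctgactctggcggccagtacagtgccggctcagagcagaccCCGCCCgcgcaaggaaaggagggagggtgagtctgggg
Cdk4 (chr10:127063385-127063534, plus strand): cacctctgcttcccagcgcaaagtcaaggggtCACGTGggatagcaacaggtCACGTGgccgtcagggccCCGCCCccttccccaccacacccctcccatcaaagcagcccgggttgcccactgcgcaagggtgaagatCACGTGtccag
The upstream window of Cdkn1a held 2 p53 half-sites and no GC box, and its downstream window held 2 GC boxes and no half-site. Cdkn1b had 1 GC box, Cdk4 had 1 GC box and 3 E boxes, and Cdkn2d had 3 GC boxes and 1 half-site that overlaps a GC box. Over 32851 such windows in the table, 28.6% held a GC box, 4.30% an E box and 4.01% a p53 half-site. The sequences TATAAA (7.57% of windows), GTAAACA of FOXO factors (1.80%) and TTTCGCGC or TTTGGCGC of E2F (0.423%) were also searched, and none of the 5 windows shown held one. The E box and the half-site were added to the search after the windows had been read. A match is a description of letters, not evidence that a factor binds there.

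Genes that act with the inhibitors also differed by batch, where 65 of 153 genes of the 11 lists were called (42.5%, against 24.2% of all genes). In a list of stem cell quiescence genes 12 of 16 were called, and 15 were lower in batch 3 than in batch 1, with a median log2 difference of -0.65 against -0.03 over all genes. Nr4a1, an orphan nuclear receptor that is also an early response gene, averaged 1673, 491 and 340 CPM in batches 1, 2 and 3. Among p53 targets 10 of 20 were called, with 10 higher and 10 lower in batch 3. The anti-proliferative gene Btg2 averaged 560, 328 and 240 CPM and the polo-like kinase Plk2 342, 162 and 93.2 CPM, the same order as Cdkn1a, while Aen, another p53 target, averaged 73.2, 76.9 and 97.2 CPM. Of the G2/M genes 12 of 22 were called and 21 were higher in batch 3 than in batch 1, with Cdc20 at 171, 175 and 252 CPM. Of the later cyclins and CDKs 8 of 14 were called, and Ccnb1, the mitotic cyclin B1, averaged 217, 252 and 348 CPM. Other lists had fewer calls: 7 of 16 upstream regulators, 8 of 26 G1/S genes, 3 of 13 genes of the RB and E2F family, 2 of 6 of DREAM and MuvB, 2 of 11 that turn over inhibitors and D cyclins, 2 of 10 of the imprinted domain around Cdkn1c and 1 of 2 other genes named as CDK inhibitors. Skp2, of the turnover list, which marks p27 for degradation, averaged 50.5, 69.8 and 71.1 CPM.

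Without female control libraries 5 and 6, the batch calls numbered 9 of 16 quiescence genes, 5 of 20 p53 targets, 7 of 22 G2/M genes and 6 of 14 later cyclins and CDKs, beside 14.6% of all genes. Calls then fell to 2 of 26 G1/S genes, 0 of 6 of DREAM and MuvB and 0 of 2 other genes named as CDK inhibitors. They were 6 of 16 upstream regulators, 2 of 13 of the RB and E2F family, 1 of 11 of the turnover list and 1 of 10 of the imprinted domain. Markers of LSK and other cells moved with batch too. Of 9 LSK markers 6 were called and all 9 were lower in batch 3 than in batch 1, with summed levels of 1630 to 2356, 1549 to 2839 and 1122 to 1831 CPM in batches 1, 2 and 3, and 3 were called without female controls 5 and 6. Of 9 B cell markers 7 were called and all 9 were lower (median log2 -1.55), with sums of 336 to 871, 209 to 569 and 116 to 571 CPM. Calls also took in 7 of 9 mature erythroid, 4 of 8 neutrophil, 4 of 8 T and NK cell, 2 of 6 megakaryocyte and 1 of 6 stromal and endothelial markers. In these 5 lists 1, 3, 2, 2 and 0 were called without female controls 5 and 6, and 7 of 9 B cell markers. All 8 macrophage and dendritic markers were called and lower in batch 3 than in batch 1, with summed levels of 514 to 1345, 197 to 433 and 210 to 650 CPM in batches 1, 2 and 3, and all 8 erythroid progenitor markers were called and higher, with sums of 1127 to 2974, 938 to 2750 and 1340 to 5486 CPM. No marker of these lists was at 0 in all libraries, and the part of these cells in the members' batch differences was not tested.

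The diet comparison asks whether these genes differ in pups of Western-diet dams. None of the 10 was called in females, in males or over both sexes. In females 5.42% of all genes were called, 2.2% higher and 3.22% lower, in males 0.0102%, and in the average over sexes 5.7%, 2.19% higher and 3.51% lower. At an unadjusted p under 0.05 the edgeR fit held 4 of 10 in females (Cdk6, Ccnd2, Cdkn1a and Cdkn2c), 2 in males (Ccnd1 and Cdkn1b) and 2 in the average (Cdk6 and Cdkn1a), beside 21.3, 8.45 and 20.6% of all genes. DESeq2 called 1, Cdk6, in females and 0 in males and in the average, and limma-voom 0, 0 and 1, again Cdk6. Over all genes DESeq2 called 1776 in females, and limma-voom 1505 in the average. With no filter on low counts 4 were called in females (Cdk6, Ccnd3, Cdkn1a and Ccnd2), and without batch 1 there were 2 (Ccnd2 and Cdkn1a). Calls over all genes in females rose too, from 1064 to 2023 with no filter and to 1839 without batch 1. For every gene the Western-diet and control libraries overlapped in both sexes, where 1.18% of all genes in females and 0.5% in males had groups that did not overlap. The median log2 fold change of the 10 genes was 0.07 in females and -0.03 in males, beside 0.03 and 0.02 over all genes.

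Of the inhibitors, Cdkn1a came nearest to a call. In female controls it ranged from 44.5 through a median of 102 to 265 CPM, and in Western-diet females from 83.1 through 147 to 252 CPM. The 2 lowest values of all 24 libraries were female controls 5 and 6, at 44.5 and 46.3 CPM, and the highest female value was also a control. The fitted difference was 1.39-fold higher with the Western diet (log2 0.48, 95% interval 0.14 to 0.81, adjusted p 0.0854). Within batches, the mean log2 difference was 0.01, 0.48 and 0.99 in batches 1, 2 and 3. Leaving out female controls 5 and 6 gave 0.22 with no call, and without female control 2 it was 0.63 with an adjusted p of 0.0116. In males Cdkn1a ran from 93.8 through 129 to 266 CPM in controls and from 112 through 165 to 313 CPM with the Western diet, which overlapped widely (log2 0.20, 95% interval -0.13 to 0.53).

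Cdkn1b was not called by diet in females, with medians of 23.1 CPM in controls and 24.998 CPM with the Western diet (log2 0.06, 95% interval -0.17 to 0.30). In males controls ran from 18.2 through 21.6 to 27.02 CPM and Western-diet libraries from 18.6 through 25.8 to 31.4 CPM. In males 3 Western-diet libraries lay above every control, and the means were higher in all 3 batches (log2 0.24, 95% interval 0.00 to 0.48, adjusted p 0.590). The male Cdkn1b difference was largest in batch 2, at log2 0.05, 0.54 and 0.13 in batches 1, 2 and 3. Its fitted value was 0.07 without batch 2. Cdkn1c was at 0.487 to 1.07 CPM in female controls and 0.420 to 1.34 CPM in Western-diet females (log2 0.02, 95% interval -0.61 to 0.65). At this depth the interval is too wide to bound its change closely in either direction. In males Cdkn1c was at 0.473 to 1.22 and 0.393 to 1.16 CPM (log2 -0.14, 95% interval -0.75 to 0.48).

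Cdkn2c, the p18 gene, ran from 1.51 through 2.71 to 6.30 CPM in female controls and from 1.40 through 2.07 to 3.21 CPM in Western-diet females. The highest value was female control 5, and 2 Western-diet libraries lay below every control (log2 -0.54, 95% interval -1.08 to -0.00, adjusted p 0.231). The Cdkn2c value was -0.26 without female control 5 and -0.16 without female controls 5 and 6. In males it was at 1.95 to 3.65 CPM and 2.18 to 2.63 CPM (log2 -0.10, 95% interval -0.64 to 0.43). Cdkn2d, the p19 gene, ran from 52.3 through 76.7 to 100.2 CPM in female controls and from 68.5 through 87.0 to 101 CPM in Western-diet females, where the lowest 2 libraries were again female controls 5 and 6 (log2 0.21, 95% interval -0.02 to 0.44). Without them the Cdkn2d value was 0.03. Male values were 75.9 to 94.0 CPM and 75.7 to 94.7 CPM (log2 0.01, 95% interval -0.22 to 0.24).

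**Figure D2:**
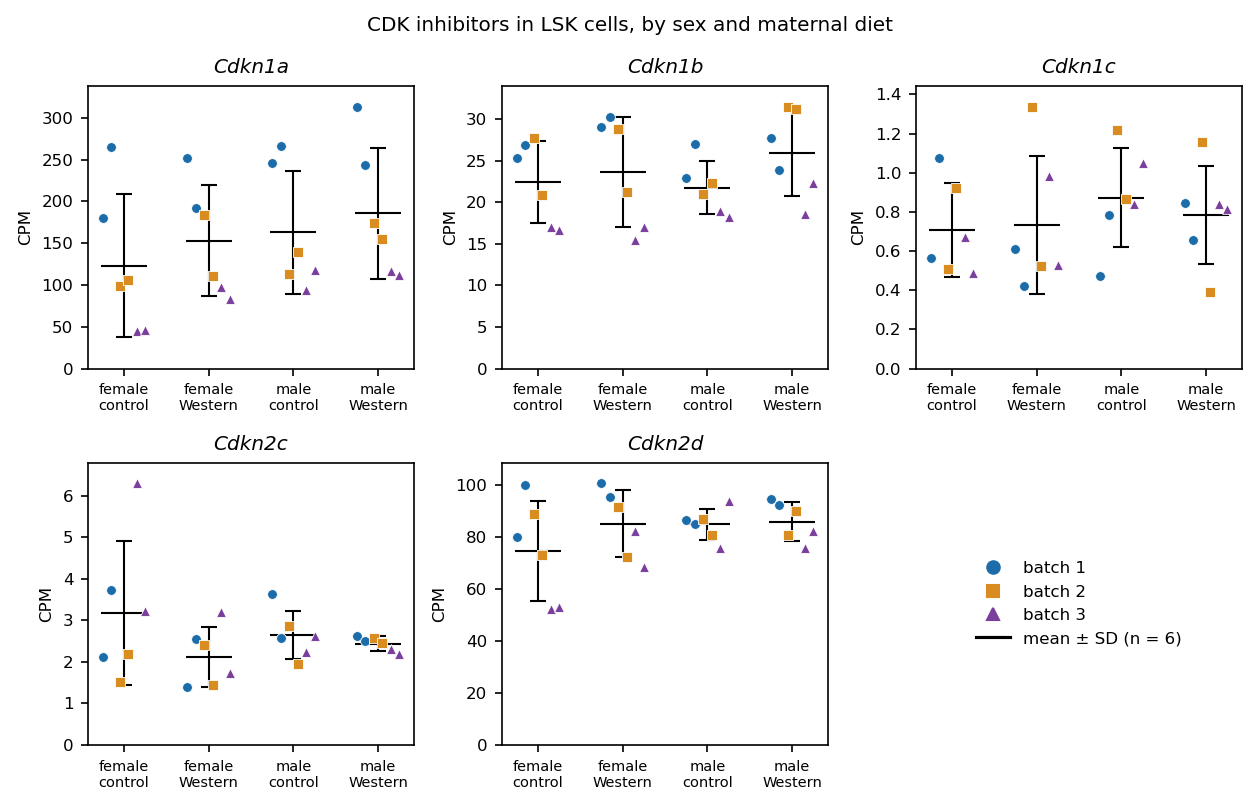
Level in CPM of the 5 CDK inhibitors in each library, by sex and maternal diet. Marker shape and colour give the labelled batch, and black lines the mean ± SD (n = 6). The diet groups overlap in each panel, batch 1 libraries are the highest for Cdkn1a, and female controls 5 and 6 of batch 3 are the lowest for Cdkn1a and Cdkn2d.

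Among the D cyclins, Ccnd2 and Ccnd3 had differences of opposite sign in females. Ccnd2 ran from 257 through 422 to 499 CPM in female controls and from 416 through 493 to 640 CPM in Western-diet females. In females 3 of 6 Western-diet libraries lay above every control, and the lowest values were female controls 5 and 6. The difference was 1.33-fold (log2 0.41, 95% interval 0.13 to 0.70, adjusted p 0.0775). By batch the log2 difference in female Ccnd2 was -0.12, 0.35 and 0.99. Without female controls 5 and 6 it was 0.20 with no call, and it was called without female control 2 (adjusted p 0.0395) or without Western-diet female 2 (adjusted p 0.0442). In males Ccnd2 ran from 421 through 527 to 600 CPM in controls and from 383 through 500 to 553 CPM with the Western diet (log2 -0.07, 95% interval -0.36 to 0.21).

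Ccnd3 ran from 287 through 395 to 511 CPM in female controls and from 106 through 314 to 345 CPM in Western-diet females. Every Western-diet female lay below the control mean of 403 CPM, and 2 of them, libraries 5 and 6, lay below every control. The fitted difference was -0.57 (95% interval -1.15 to 0.01, adjusted p 0.248), but by batch it was -0.32, 0.11 and -1.77, so it was largest in batch 3, where controls averaged 506 CPM and Western-diet libraries 157 CPM. It was -0.38 without female controls 5 and 6 and -0.36 without Western-diet female 6. Male Ccnd3 was more scattered among controls, from 147 through 315 to 598 CPM, than with the Western diet, from 291 through 338 to 369 CPM (log2 0.08, 95% interval -0.49 to 0.65). The low and high control libraries were male controls 1, 5 and 6.

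In males most Ccnd1 values with the Western diet lay below those of controls, though the gene was not called. Male controls ran from 88.5 through 108 to 116 CPM and Western-diet males from 63.7 through 80.8 to 106 CPM. In males 4 of 6 Western-diet libraries lay below every control, and the mean was lower in all 3 batches, by 0.25, 0.35 and 0.45 on the log2 scale. The fitted log2 difference was -0.34 (95% interval -0.66 to -0.02), with an adjusted p of 0.563. In females Ccnd1 ran from 50.6 through 78.4 to 117 CPM in controls and from 58.0 through 77.9 to 84.6 CPM with the Western diet. The batch values there changed sign, at -0.44, -0.14 and 0.44 (fitted log2 -0.06, 95% interval -0.38 to 0.26). Without female controls 5 and 6 the female Ccnd1 value was -0.31 ± 0.15 SE, beside -0.34 ± 0.13 in males in the same fit, so the sexes were then close.

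The make-up of the D cyclin pool followed these levels. Ccnd2 held 39.8 ± 8.56% of D cyclin transcripts per kb in female controls and 54.5 ± 8.25% in Western-diet females (SD, n = 6), while Ccnd3 held 44.3 ± 11.7% and 29.8 ± 8.52%. The medians lay closer, at 42.6 and 52.5% for Ccnd2 and 38.8 and 33.9% for Ccnd3. The female levels behind these shares differed most in batch 3, at log2 0.99 for Ccnd2 and -1.77 for Ccnd3. In batches 1 and 2 these values were -0.12 and 0.35 for Ccnd2 and -0.32 and 0.11 for Ccnd3. The shares without female controls 5 and 6, both of batch 3, were not computed. In males Ccnd2 held 49.6 ± 9.89% and 48.4 ± 3.16%. The Ccnd2 share ran from 38.3 to 62.8% in batch 1, from 46.9 to 53.3% in batch 2 and from 28.7 to 66.7% in batch 3, so it was narrow in batch 2.

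**Figure D3:**
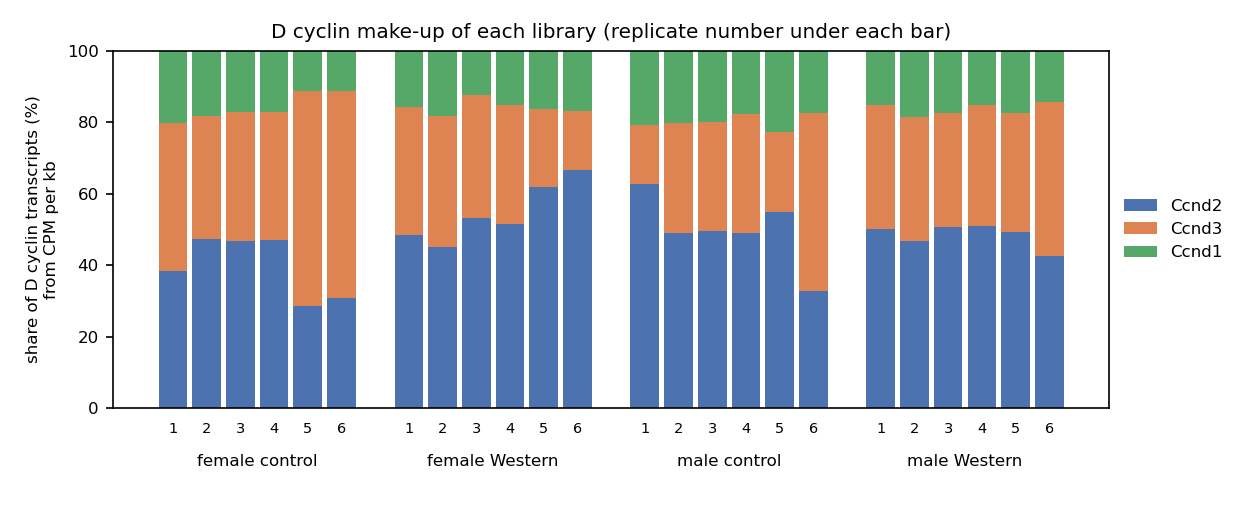
Share of Ccnd2, Ccnd3 and Ccnd1 in the D cyclin transcripts of each of the 24 libraries, from CPM per kb of exon, in percent. Bars are single libraries with their replicate number, grouped by sex and maternal diet. The Ccnd2 share is lowest in female control 5 (28.7%) and highest in Western-diet female 6 (66.7%), both of batch 3.

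Of the kinases, Cdk4 had narrow ranges in all 4 groups. Female controls ran from 609 through 666 to 712 CPM and Western-diet females from 563 through 670 to 827 CPM, and males from 588 through 684 to 817 CPM and from 610 through 649 to 740 CPM. The 95% intervals were -0.09 to 0.23 in females and -0.23 to 0.08 in males on the log2 scale.

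Cdk6 had the largest fitted diet difference among the 10 genes in females. Female controls ran from 745 through 894 to 951 CPM and Western-diet females from 850 through 1175 to 3102 CPM. In females 4 of 6 Western-diet libraries lay above every control, and 1 of them, library 3 of batch 2, stood far above the next at 1293 CPM. That library also had the highest share of reads outside genes of the 24, with 21.2% of its reads in genes or in no feature falling in no feature, against 17.001% in the next, and the part of this in its Cdk6 value was not tested. The difference was 1.57-fold (log2 0.65, 95% interval 0.23 to 1.07, adjusted p 0.0599). By batch it was 0.17, 1.22 and 0.27 in log2, higher in all 3. Without Western-diet female 3 the fitted Cdk6 value was 0.31 with an adjusted p of 0.125. It was called without Western-diet female 1 (adjusted p 0.0386) or 6 (adjusted p 0.0325), and by DESeq2 (adjusted p 0.0360). In males Cdk6 ran from 816 through 976 to 1191 CPM in controls and from 995 through 1109 to 1283 CPM with the Western diet, with all 6 Western-diet libraries above the control mean (log2 0.23, 95% interval -0.19 to 0.64, adjusted p 0.781).

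**Figure D4:**
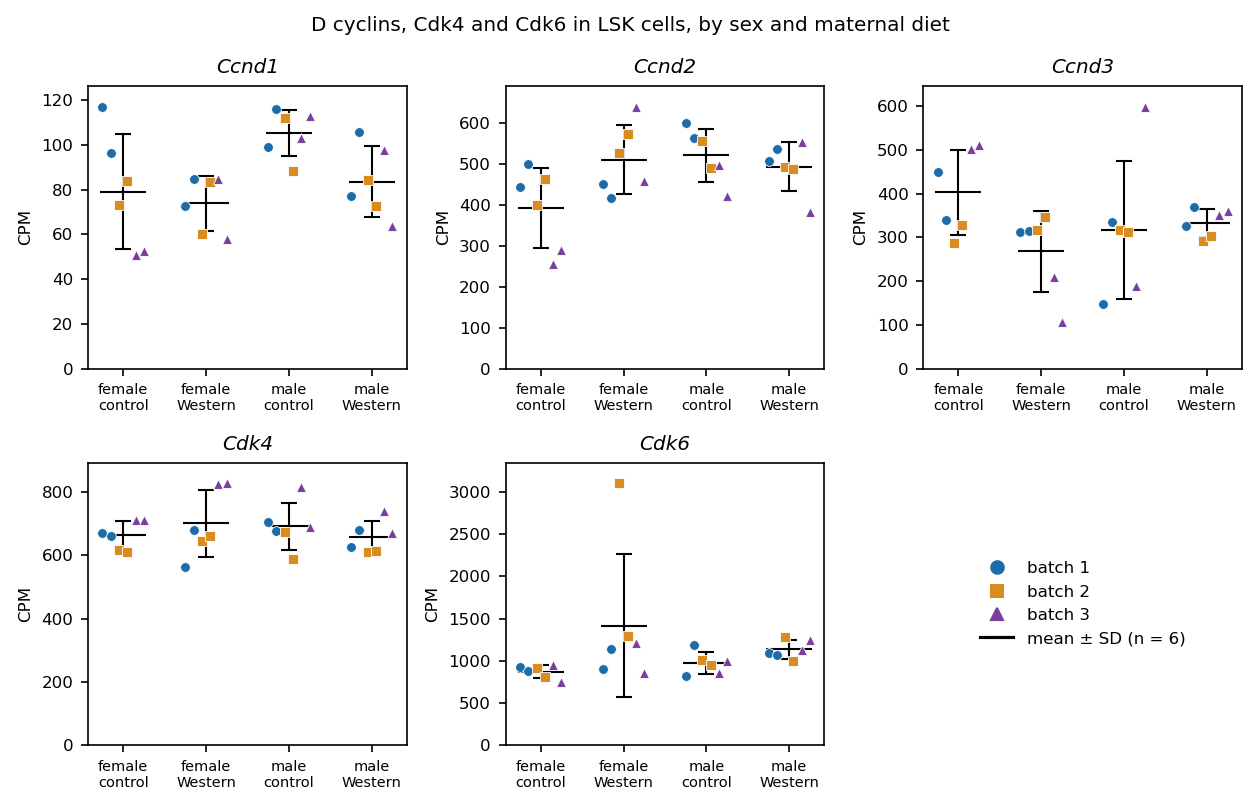
Level in CPM of the 3 D cyclins, Cdk4 and Cdk6 in each library, by sex and maternal diet. Marker shape and colour give the labelled batch, and black lines the mean ± SD (n = 6). Western-diet female 3 reaches 3102 CPM for Cdk6, and Ccnd3 spreads from 106 to 598 CPM over the libraries.

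**Figure D5:**
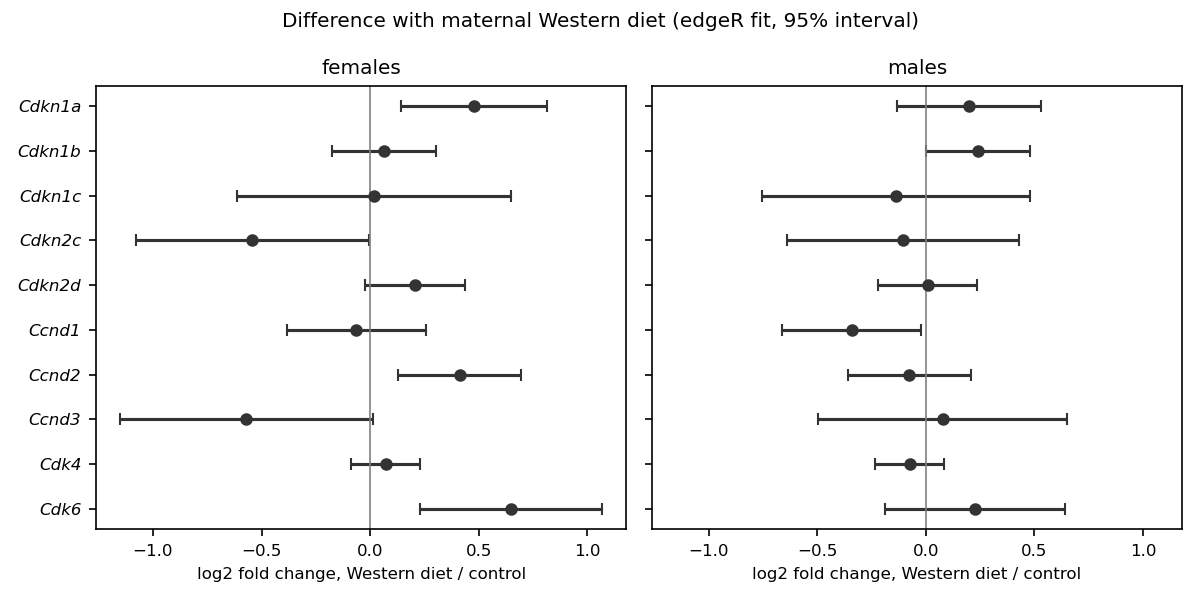
Fitted log2 fold change of Western diet over control for each gene, in females and in males, with its 95% interval. In females the intervals of Cdkn1a, Ccnd2 and Cdk6 lie above 0 and that of Cdkn2c below it, and in males those of Cdkn1b and Ccnd1 leave 0 out, but none passed the adjusted test.

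Averaged over both sexes, the Cdk6 difference was 0.44 (95% interval 0.14 to 0.73, adjusted p 0.0710) and the Cdkn1a difference 0.34 (0.10 to 0.57, adjusted p 0.0830). Cdk6 passed without Western-diet female 1 (adjusted p 0.0495) or 6 (0.0358), and Cdkn1a without female control 2 (0.0163). With female controls 5 and 6 left out the Cdkn1a average was 0.21, and without Western-diet female 3 the Cdk6 average was 0.26. Whether the diet effect differed between males and females was tested as an interaction, male minus female, which was called for 0 of 10 genes and for 0% of all genes by edgeR, with 1 of 10 at an unadjusted p under 0.05 beside 8.32% of all genes. DESeq2 and limma-voom called 0 of the 10. That gene was Ccnd2 (log2 -0.49, 95% interval -0.89 to -0.09, p 0.0186, adjusted p 0.589). With female controls 5 and 6 left out it was -0.28. The interval for Ccnd3 was -0.17 to 1.46 around 0.65. The contrast between the sexes was therefore not called for either cyclin by these 3 tools. With no filter on low counts it was called for Ccnd3 (0.65, adjusted p 0.0233), beside 572 of all genes.

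Sex itself, averaged over diets, gave 0 calls among the 10 genes by edgeR, DESeq2 and limma-voom, beside 0.184% of all genes by edgeR, and 2 of 10 had an unadjusted p under 0.05, beside 12.4% of all genes. Both were higher in males: Cdkn1a by 1.33-fold (log2 0.41, 95% interval 0.18 to 0.65, adjusted p 0.148) and Ccnd1 by 1.24-fold (log2 0.31, 95% interval 0.09 to 0.54, adjusted p 0.244). Female controls 5 and 6 were the lowest of all libraries for both, and without them the values were 0.27 and 0.18. Without female control 2 the sex difference of Cdkn1a was 0.49 with an adjusted p of 0.0356. With no filter on low counts it was also called (0.40, adjusted p 0.00184), beside 967 of all genes.

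The partners and targets of these genes were taken from 11 lists with 153 genes tested, and 12 were called in females, 7.84% beside 5.42% of all genes. In the RB and E2F family 3 of 13 fell and none rose: E2f2, an activating E2F (66.6 to 39.4 CPM, log2 -0.78 ± 0.20 SE), E2f8, a repressive E2F (66.9 to 45.1 CPM, -0.54 ± 0.15) and the dimer partner Tfdp2 (80.4 to 58.8 CPM, -0.46 ± 0.13), with adjusted p of 0.0210, 0.0337 and 0.0406. The family's median was -0.03, beside 0.03 for all genes. Of 26 G1/S genes 1 fell, Cdc6, which loads the replicative helicase (276 to 183 CPM, -0.57 ± 0.14, adjusted p 0.0136), and 22 had a negative value, with a list median of -0.16. Of 22 G2/M genes none was called, with 6 at an unadjusted p under 0.05 in edgeR, 1 called by DESeq2 and 0 by limma-voom, and a median of -0.09. Of 14 later cyclins and CDKs none was called, with 3 at an unadjusted p under 0.05, 1 called by DESeq2 and 0 by limma-voom. Ccne1, the cyclin E that acts next after the D cyclins, had 66.6 and 23.5 CPM (-1.15 ± 0.36, adjusted p 0.0599). The Ccne1 value shrank to -0.26 ± 0.16 without female controls 5 and 6.

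In the list of stem cell quiescence genes 4 of 16 rose in females and 1 fell. Among those that rose were the transcription factors Mecom (15.2 to 21.2 CPM, log2 0.55 ± 0.13 SE), Meis1 (115 to 160 CPM, 0.52 ± 0.12) and Gfi1 (3.81 to 7.05 CPM, 0.90 ± 0.22), with adjusted p of 0.0125, 0.0134 and 0.0142. The gene that fell, Btg2, is also among the 20 p53 targets, where it (405 to 257 CPM, -0.69 ± 0.19, adjusted p 0.0310) and Sesn2, a stress-induced inhibitor of mTORC1 signalling (30.6 to 15.3 CPM, -0.98 ± 0.21, adjusted p 0.00803), fell and none rose. Both stood opposite in sign to Cdkn1a, itself a p53 target, which was not called. The 20 listed targets were split in females, with 9 positive and 11 negative values. Of 16 upstream regulators Gfi1 rose and Stat5a, which carries cytokine signals to the D cyclins, fell (117 to 89.7 CPM, -0.37 ± 0.11, adjusted p 0.0493). Of 11 genes that turn over inhibitors and D cyclins 1 fell, the ubiquitin ligase scaffold Cul4a (194 to 121 CPM, -0.59 ± 0.17, adjusted p 0.0411).

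None of 10 genes of the imprinted domain around Cdkn1c was called in females, with 2 at an unadjusted p under 0.05, 1 called by DESeq2 and 0 by limma-voom. Kcnq1ot1, the non-coding RNA that silences the domain on the paternal chromosome, had 130 and 218 CPM (log2 0.72 ± 0.24 SE, adjusted p 0.0859). It lies antisense to Kcnq1, and the library kit does not mark strand, so reads of the overlapping genes cannot be told apart. None of 6 genes of the DREAM and MuvB complexes was called, with 1 at an unadjusted p under 0.05 and 0 by DESeq2 or limma-voom. Of other genes named as CDK inhibitors, Cdkn3 (45.1 and 39.5 CPM, log2 -0.19 ± 0.10) and Cdkn2b (0.202 and 0.169 CPM) were tested and not called. Neither had an unadjusted p under 0.05 or a call by DESeq2 or limma-voom, and Cdkn2a did not pass the filter on low counts.

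All 12 calls of these lists in females were lost without female controls 5 and 6, when 154 genes were called over the whole table. The values kept their signs, for example -0.50 for E2f2, -0.42 for Cdc6 and -0.89 for Sesn2. In males none of the 153 genes was called by edgeR, DESeq2 or limma-voom, with 20 at an unadjusted p under 0.05 in edgeR, 13.1% beside 8.45% of all genes. In the average over sexes 13 were called (8.50%, beside 5.7% of all genes), among them 4 of 26 G1/S genes, all of them lower, and all 26 had a negative value, with a median of -0.16 beside 0.02 for all genes. Without female controls 5 and 6, 1 G1/S gene was called and 25 were negative.

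Markers of erythroid progenitors moved with diet beside these lists. In females 7 of 8 fell, with summed levels of 1795 to 5486 CPM in controls and 938 to 2276 CPM with the Western diet, and in males 1 of 8 fell, with sums of 1316 to 3869 and 999.95 to 1833 CPM. Of 9 mature erythroid markers 4 fell in females, with sums of 1177 to 8551 and 658 to 2792 CPM. In males 0 of the 9 were called, with sums of 2504 to 6886 and 891 to 3157 CPM. All 9 were negative in both sexes, with a median log2 of -0.89 in females and -1.24 in males, and 7 were called in the average. Of 9 B cell markers 3 rose in females, with sums of 116 to 447 and 226 to 871 CPM. The most abundant genes of the 3 lists averaged 834 and 304 CPM (Ermap), 1279 and 693 CPM (Hbb-bs) and 68.2 and 190 CPM (Igkc) in female controls and Western-diet females. The level of Hbb-bs is uncertain, since Hbb-bt is a near-identical copy. No gene of these 3 lists was at 0 in all libraries. Of 8 T and NK cell markers 1 rose in females, Nkg7 (180 to 305 CPM). Nkg7 stood apart in level, at 268 CPM over all libraries, with Trbc1 next at 8.36 CPM and Cd3e at 0.477 CPM. The 8 markers had 6 positive and 2 negative values in females, and 1 positive and 7 negative in males. Of 9 LSK markers none was called by edgeR in females, with 5 at an unadjusted p under 0.05, 3 called by DESeq2 and 0 by limma-voom. Without female controls 5 and 6, 6 of the 8 erythroid progenitor markers and 2 of the 9 mature erythroid markers were still called in females. No B cell, T and NK cell or LSK marker was then called in females. The part of these cells in the values of the 10 genes was not tested.

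Pairs of the 10 genes were also compared across libraries. On log2 CPM centred within batch, 11 of 45 pairs had a permutation p under 0.05 for Pearson's r, 9 for Spearman's rho and 8 for both, all 8 of them positive, and 1 pair passed after Benjamini-Hochberg adjustment. Sex and diet differences were not removed, and the share of such pairs among all genes was not computed. These counts therefore cannot be read as particular to the 10 genes. Cdkn1a and Cdkn2d had Pearson's r = 0.78 (permutation p within batch 0.00073, adjusted 0.0328) and Spearman's rho = 0.68 (permutation p 0.00136, adjusted 0.0580) over 24 libraries. The r was 0.57 without the 2 libraries farthest from the median of Cdkn1a, and 0.41, 0.39 and 0.95 within batches 1, 2 and 3, so it was highest in batch 3. Next came Cdkn1a with Ccnd2 (r = 0.67, permutation p 0.00612, adjusted 0.101; rho = 0.47, permutation p 0.0325, adjusted 0.183; r = 0.37 without the 2 farthest libraries). Ccnd3 and Cdk4 had r = -0.59 (permutation p 0.0143, adjusted 0.129) and rho = -0.45 (permutation p 0.0569, adjusted 0.256), with r = -0.47 without the 2 farthest, and within batches -0.24, 0.46 and -0.87. Cdkn1a also ran with Cdkn1c (r = 0.51, permutation p 0.00901, adjusted 0.101; rho = 0.58, permutation p 0.00387, adjusted 0.0580; r = 0.49 without the 2 farthest) and with Cdk6 (r = 0.48, permutation p 0.00723, adjusted 0.101; rho = 0.52, permutation p 0.0133, adjusted 0.144; r = 0.51 without the 2 farthest). Ccnd2 ran with Ccnd1 (r = 0.59, permutation p 0.0191, adjusted 0.129; rho = 0.56, permutation p 0.0160, adjusted 0.144; r = 0.56 without the 2 farthest) and with Cdk4 (r = 0.55, permutation p 0.0201, adjusted 0.129; rho = 0.66, permutation p 0.00265, adjusted 0.0580; r = 0.49 without the 2 farthest).

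The genes most like each of the 10 over the 24 libraries, among 10597 with a symbol and a mean of at least 5 CPM, are given as a description with Pearson's r on log2 CPM centred within batch. Ccnd3 had the closest neighbours, Prcc (0.95), E4f1 (0.95) and Kcnn4 (0.95), followed by Cdk6 with Taok1 (0.94), Gm37531 (0.93) and Mgat4a (0.93). Ccnd2 ran closest to Afp (0.93), Ada (0.93) and Itpripl2 (0.92), and Cdkn1a to Tubb6 (0.88), Sptbn1 (0.87) and Camk2g (0.86). Cdk4 was nearest to Myg1 (0.88), Mrpl16 (0.87) and Haus8 (0.86), Cdkn2d to Gm12216 (0.84), Cd72 (0.83) and Gimap7 (0.82), and Cdkn1b to Mxd4 (0.81), Gna15 (0.80) and Ptgir (0.80). The neighbours of Ccnd1 (2410002F23Rik at 0.77, Faah at 0.76 and Ly6d at 0.74), Cdkn2c (March2 at 0.72, Smap1 at 0.69 and Gtf3c2 at 0.65) and Cdkn1c (Tanc1 at 0.70, Cuedc1 at 0.68 and 2700081O15Rik at 0.67) were less close. These values share library, depth and group differences, and none of the 10 genes was among another's nearest neighbours because the search left them out.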

How the data were processed

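Marrow of legs and hips was depleted of lineage-positive cells before LSK cells were sorted, and libraries came from a low-input polyA kit that does not mark strand, per the labels' protocols. The authors deposited raw read counts per gene, 1 file per library. FastQC, cutadapt, STAR, HTSeq, DESeq2 and build GRCm39 are named per the submitters' processing notes, with no versions and nothing on the annotation release or strand setting. Closing lines that name no gene held 31.0 to 39.3% of each file and were removed before scaling and testing. Of 55414 identifiers 52081 matched a symbol, and of 241 listed symbols 239 matched (the other 2 are not analysed here).

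Counts were tested in edgeR 4.0.16 (R 4.3.3): filterByExpr left 19616 genes, TMM factors ran from 0.932 to 1.05, and 1 robust quasi-likelihood fit over all 24 libraries carried group and batch terms. Batch was tested with its terms together. The p-values are two-sided, adjusted by Benjamini-Hochberg over all tested genes and called under 0.05. Levels per kb use the union of GENCODE M21 exons, from an older build, for lengths alone. Correlations used 100000 permutations within batch. Promoter windows were found for 7 of the 10 genes. The fit was tested on simulated counts.

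Alternatives were DESeq2 1.42.0, limma-voom with quality weights (limma 3.58.1), RLE normalization, no filter, a stricter filter, a fit lacking batch, a replicate block, a fit of the 2 compared groups alone, and libraries or batches left out. The genes and lists were chosen with earlier results of these data known. By rule, all 10 genes were named, with up to 4 genes of smallest p from each list per diet comparison, the 3 nearest neighbours of each gene and the most abundant gene of each marker list. Other genes, those named by batch and Kit and Ly6a among them, were chosen after their values were seen, and the values of 1 gene that the rule names are not reported here. Libraries with the same replicate number were checked for pairing: with group and batch means removed, 4 of 36 correlations exceeded 0.1 (median -0.01). Each group held 2 libraries per batch, so their deviations mirror each other, and both numbers of a batch give the same correlation. The 36 values are therefore not all separate, and they cannot settle whether the numbers pair libraries beyond batch.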

Additional observations from a re-analysis of the deposited data

Results flagged for a closer look

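Western-diet female library 3 held 3102 CPM of Cdk6, far from the other 5 libraries of its group, of which the next was at 1293 CPM. The gap was 0.804 of the group's whole range, above Dixon's 95% critical value for 6 samples. Of 40 groups tested, 10 genes in 4 groups each, this was the 1 group singled out, and chance alone marks about 1 in 20 groups. In the same library Cdk4 stood at 645 CPM and Ccnd2 at 527 CPM, inside the range of the other Western-diet females. It also had the highest share of reads in closing lines that name no gene, 39.3%, of the 24 libraries.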

How the results depend on the processing

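Over 36 results for single genes there were 1227 alternative values. Of these, 1136 had no counted change, 15 lost a call, 26 gained one and 50 changed sign, the last all for values that were not called. Changes of sign were counted for diet, interaction and sex values, but not for batch values. The Cdk6 difference between batches 3 and 1 (-0.01) kept its sign in 2 of 6 other settings. With each library left out it did so in 9 of 24 fits. For Ccnd3 these counts were 5 of 6 and 22 of 24, and for Cdkn2c 5 of 6 and 23 of 24. The depth limits Cdkn1c most. The cause of the changes below was not tested. Counts of called genes are given for diet in females, in males and in the average (1064, 2 and 1118), then the interaction, sex and batch (0, 36 and 4753). With no filter they were 2023, 380, 1693, 572 and 967, and the 10 genes held 4, 0, 2, 1 and 1 calls. A stricter filter gave 10 in males. DESeq2 gave 1776, 100, 1781, 4 and 254, with 1 of the 10 genes in females. Limma-voom gave 112 in males and 173 for sex, with 1 of the 10 genes in the average. With no batch term there were 404, 0 and 466, and 12 for sex. Fits of the 2 groups alone gave 358 in females and 1 in males.

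The replicate block in place of batch gave 827, 1 and 924 genes for diet and 24 for sex, and 0 of the 10 genes in each. It changed no other call among them.

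Without batch 1 there were 1839 genes in females (2 of the 10), 1 in males, 124 for sex and 2805 for batch, with 1 of the 10 genes in the average. Without batch 2 there were 297, 1 and 556 for diet. Without batch 3 there were 146, 0 and 143 for diet, 23 for sex and 1200 for batch, with 1 of the 10 genes by batch. Without female controls 5 and 6 there were 154 in females, 447 in the average, 19 for sex and 2946 for batch. Leaving out each library gave 504 to 1386 in females, 1 to 13 in males, 716 to 1464 in the average and 22 to 66 for sex, and among the 10 genes 0 to 2 in females, 0 to 1 in the average, 0 to 1 for sex and 3 to 5 by batch. The count in females was 535 without female control 5, 504 without female control 6 and 575 without Western-diet female 5, and the average was 736 without female control 6, 716 without Western-diet male 5 and 744 without Western-diet male 6. Counts in males and for sex are small, and leaving out 1 of 9 and 1 of 6 libraries moved them by over 1.5 times.

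Signs turned for small values. Cdkn2d in males was 0.01 and became -0.010 with RLE normalization, -0.0074 with no filter, -0.0027 with the stricter filter, -0.0100 with DESeq2, -0.050 without batch 1 and -0.023 without batch 2. Cdkn1c in females was 0.02 and became -0.00012 with no filter, -0.10 with limma-voom, -0.036 with the replicate block, -0.18 without batch 2, -0.14 without batch 3 and -0.16 without female controls 5 and 6. Without batch 1, Cdkn1b in females was -0.046, Ccnd1 in females 0.10 and Ccnd3 in males -0.13, and without batch 3 Cdk4 in females was -0.0025. Leaving out each library, the ranges were -0.16 to 0.032 for Ccnd1, -0.014 to 0.11 for Cdkn1b and -0.22 to 0.24 for Cdkn1c in females, and -0.087 to 0.39 for Ccnd3, -0.27 to 0.024 for Cdkn1c, -0.20 to 0.0074 for Cdkn2c and -0.050 to 0.090 for Cdkn2d in males.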
